A study of Mus musculus with 2 samples.

Results

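The genes of hepatic fatty acid oxidation and ketogenesis (28 genes) and of fatty acid synthesis and storage (13 genes) were followed in mouse hepatocytes with and without induced YAP. The 41 genes were listed by name from their textbook roles, and all of them are rows of the count table of 31053 genes. They were read in the hepatocyte-like barcodes, which were 2687 of 2989 barcodes in the control library and 824 of 1524 in the tetYAP 4W library. In these barcodes all 41 genes had at least 10 UMIs over both libraries (a UMI, unique molecular identifier, stands for 1 captured transcript).

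The data are droplet single-cell RNA-seq counts of hepatocytes isolated by liver perfusion from C57BL/6 mice. The control library carried LaptTA, a tetracycline-controlled transactivator driven by the liver LAP promoter, without the YAP transgene (LaptTA;WT). The tetYAP 4W library carried LaptTA and a tet-responsive transgene for an activated YAP with a changed inhibitory phosphorylation site (LaptTA; tetYAP), which is silent on doxycycline food. Per the study's methods, doxycycline was withdrawn at 4 weeks of age, and 4W stands for 4 weeks of induction. Both groups share the transactivator, the age of the control animal is not given in the sources used here, and each group is 1 library, so no difference below has a replicate check and none was tested. All intervals are 95% intervals that cover counting error only.

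The label "hepatocytes" held in part. All 12 hepatocyte markers were counted in the hepatocyte-like barcodes of both libraries, but barcodes with clear markers of macrophages, endothelial cells and blood cells made up much of the rest of the tetYAP 4W library, with 276 macrophage-like and 127 endothelial-like barcodes. The hepatocyte-like barcodes formed 8 clusters, and each cluster lay in a single library. Their median depth was 3096 UMIs in the control and 3977.5 UMIs in tetYAP 4W, and their median mitochondrial share was 28.2% and 55.5%. Within the hepatocyte-like class, the macrophage markers summed to 23.8 and 785 CPM (counts-per-million UMIs) in control and tetYAP 4W, and the endothelial markers to 87.9 and 659 CPM, with all 11 and all 12 of them higher in tetYAP 4W. Xist, made from an inactivated X, gave 3 UMIs in the control library against 4859 in tetYAP 4W, while 4 Y-linked genes gave 716 and 0, so the sex of the animal and the genotype cannot be told apart. No barcode sequence occurred in both libraries.

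Fatty acids enter the hepatocyte or are released inside it, are bound by carrier proteins and activated to acyl-CoA. Acyl-CoA is either moved by the carnitine shuttle into mitochondria, where the beta-oxidation spiral shortens it and feeds electrons to the respiratory chain and acetyl-CoA to ketone body synthesis, or is elongated, desaturated and esterified for storage in lipid droplets. Peroxisomes shorten very long and branched chains. In the fed liver, cytosolic acetyl-CoA is carboxylated and built into new fatty acids, and PPARalpha is the nuclear receptor that drives the oxidation genes in fasting.

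In the tetYAP 4W library 13 of 28 oxidation genes and 3 of 13 synthesis genes were called lower, and the median of either group lay below the median of all genes. Each gene's level is given as CPM of all UMIs of the hepatocyte-like barcodes, and its difference as the relative log2 ratio, that is the log2 ratio of CPM in tetYAP 4W over control minus the median over the 10990 genes with at least 10 UMIs, which was -0.09. The median relative log2 ratio was -0.94 over the 28 oxidation genes and -0.47 over the 13 synthesis genes, a difference of 0.47, but the order of the groups turned in summed levels without Fabp1 and Scd1, which were 2.02-fold lower for oxidation and 2.20-fold lower for synthesis. Of the oxidation genes, 25 lay below 0, and of the synthesis genes 9. A gene was called lower or higher when it differed at least 2-fold from the median of all genes and its counting interval lay on the same side of 0. By this rule 1 oxidation gene, Cd36, and 1 synthesis gene, Elovl6, were higher. The same rule called 10.4% of all genes lower and 19.1% higher. Among genes with at least 100 UMIs, a level that 40 of the 41 members reach, it called 16.3% lower and 8.46% higher. Over all barcodes, without class calls, 33 of the 41 members were lower and 1 higher, where the rule called 18.4% of all genes lower and 24.6% higher (23.5% and 17.1% of genes with at least 100 UMIs). The median of all genes taken off there was 0.60 instead of -0.09. Before it was taken off, the group medians were -1.19 and -0.65, beside -1.03 and -0.56 in hepatocyte-like barcodes. Most of the rise in lower calls thus rested on the centring. In hepatocyte-like barcodes the oxidation share of lower calls, 46.4%, was thus above both backgrounds, and the synthesis share, 23.1%, was closer to them.

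**Figure D1:**
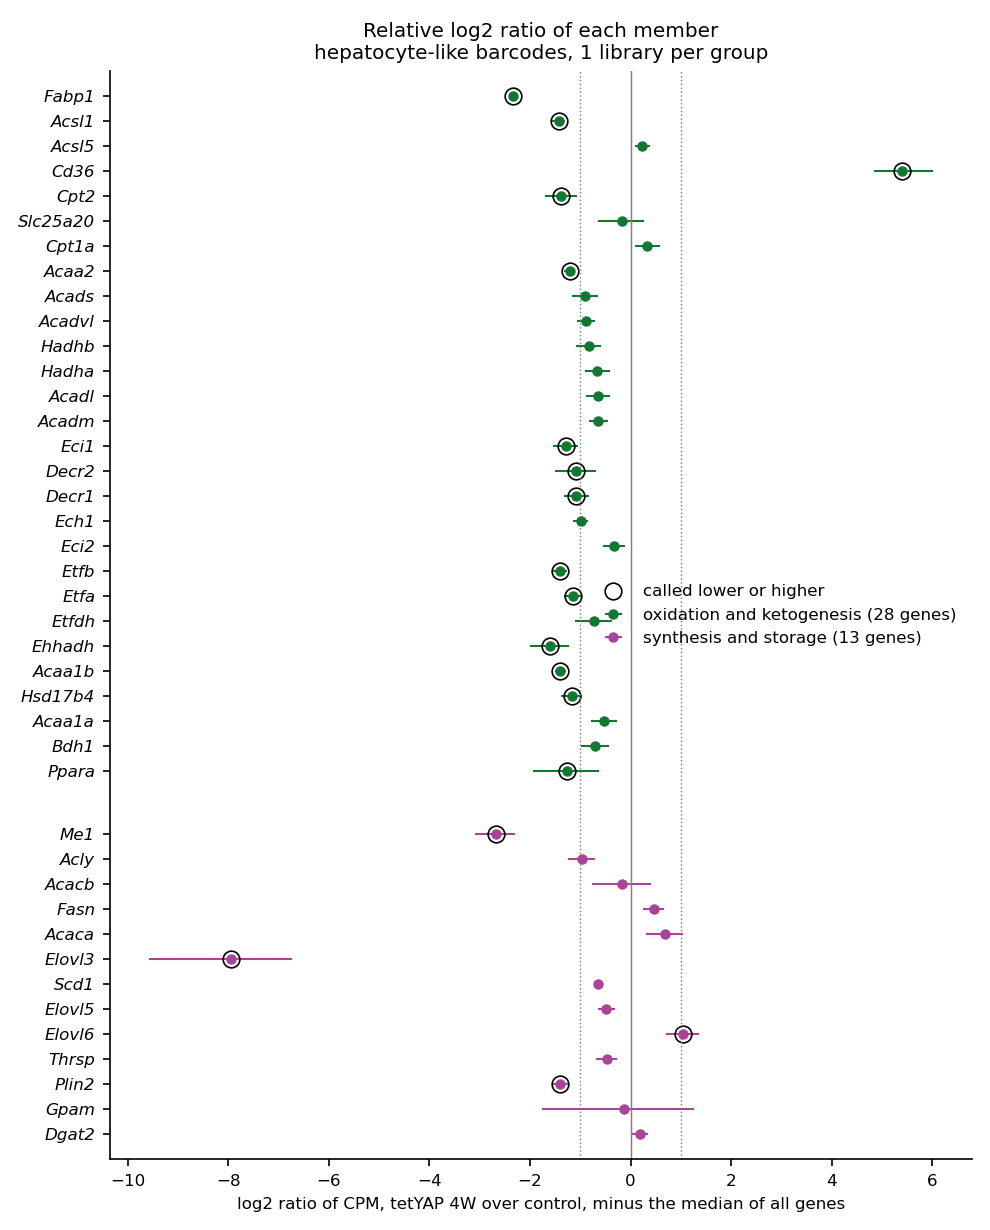
Relative log2 ratio (x axis, tetYAP 4W over control in hepatocyte-like barcodes, minus the median of all genes) of each of the 41 members, ordered by role, with 95% counting intervals as bars and calls as open circles. Apart from Cd36 at 5.39, the oxidation genes lie between -2.35 and 0.33, and the synthesis genes run from -7.95 for Elovl3 to 1.04 for Elovl6.

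Barcodes of other cells bear directly on these values. Erythroid-, B- and T- or NK-like barcodes, which should lack most hepatocyte transcripts, held nearly as many UMIs of the members per barcode as hepatocyte-like barcodes. The median over the members was 104% of the hepatocyte-like level in the control (22 such barcodes) and 94.5% in tetYAP 4W (223 barcodes). These levels are per barcode and not scaled to depth, and the 22 control barcodes were deeper, at a median of 4344 UMIs against 3096. In the control the hepatocyte-like level was above these barcodes, with its interval, for 0 of 41 members, and in tetYAP 4W for 7 of 41, namely Fabp1, Acsl1, Cd36, Fasn, Acacb, Scd1 and Dgat2. It was below them for 2 members in the control (Hadhb and Me1) and for 4 in tetYAP 4W (Acadl, Hadhb, Eci1 and Me1). Transcripts of the members were thus counted in barcodes of every class. Per barcode, without scaling to depth, the levels of most members were not particular to the hepatocyte-like barcodes. In the erythroid-, B- and T- or NK-like barcodes alone, on much lower counts, the log2 ratio of CPM had a median of -0.73 for oxidation and -0.52 for synthesis beside -0.65 for all genes, and the median relative log2 ratio was -0.07 and 0.14.

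**Figure D2:**
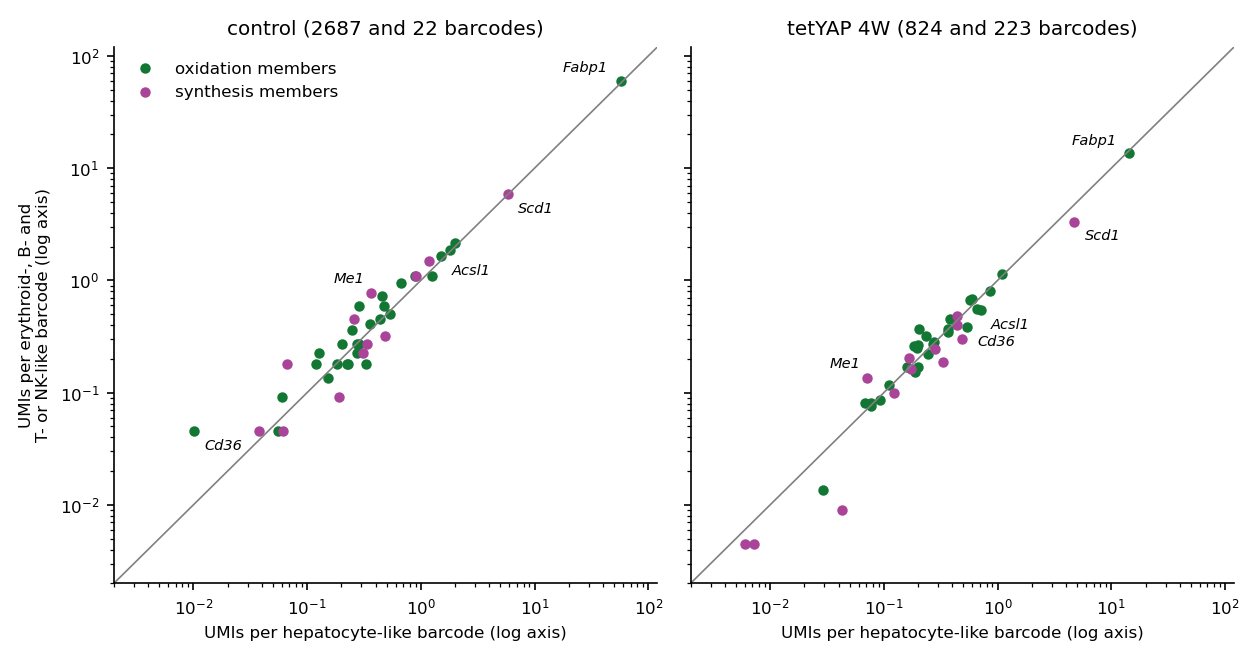
UMIs per barcode of each member in hepatocyte-like barcodes (x axis, log) and in erythroid-, B- and T- or NK-like barcodes of the same library (y axis, log), with the line of equal levels; members without a UMI in the latter are not drawn. In the control (2687 and 22 barcodes) the points scatter around the line, and in tetYAP 4W (824 and 223 barcodes) Scd1, Cd36 and Acsl1 lie under it.

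Uptake, binding and activation held the lowest and the highest oxidation member. Fabp1, the liver fatty acid-binding protein that carries fatty acids through the cytosol (chromosome 6, bases 71199879 to 71205034 of GRCm38), had 155726 UMIs in the control and 11906 in tetYAP 4W. This was 18547 CPM against 3436 CPM, a relative log2 ratio of -2.35 (-2.37 to -2.32). Fabp1 alone made up 81.2% of all oxidation UMIs in the control and 61.7% in tetYAP 4W, so it sets any summed level of the group.

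Start windows ran from 250 bases before to 50 after the RefSeq start, and members without a window were not searched. Of the 35 members with a window, Fabp1 was the only member to hold the DR1 direct repeat. This repeat is AGGNCA written again after any single base, the kind of element that PPARalpha and HNF4a bind. Of all 27025 genes with such a window, 0.451% held it on either strand. The stretch is printed because it belongs to the member with most UMIs (GRCm38.p6, chr6:71199759-71199878, plus strand, ending at the base before the start), with the repeat, which begins 67 bases before the start, in capitals.
Fabp1: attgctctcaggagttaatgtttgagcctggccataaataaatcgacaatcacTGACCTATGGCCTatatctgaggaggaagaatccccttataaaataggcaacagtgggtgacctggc

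Cd36, a membrane protein that takes up long-chain fatty acids (chromosome 5, bases 17781690 to 17888959), had 27 UMIs in the control and 441 in tetYAP 4W. The levels were 3.22 and 127 CPM, and the relative log2 ratio was 5.39 (4.83 to 6.01). At least 1 UMI of Cd36 was seen in 1.0% of control and 39.9% of tetYAP 4W hepatocyte-like barcodes, and in 33.6% of the erythroid-, B- and T- or NK-like barcodes of tetYAP 4W (median depth 4375 UMIs against 3977.5). With every barcode thinned to 1000 UMIs, these shares were 0.300%, 12% and 10.3%.

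Cd36 is also an endothelial gene, and it was highest in endothelial-like barcodes, at 3.19 UMIs per barcode in tetYAP 4W and 1.05 in the control. For each 100 UMIs of the 12 endothelial markers, endothelial-like barcodes of tetYAP 4W held 4.46 UMIs of Cd36 (4.03 to 4.93). The largest tetYAP 4W hepatocyte-like cluster, with 486 barcodes and few endothelial UMIs, held 64.0 (54.5 to 75.0), and a smaller one, with 260 barcodes, more endothelial UMIs and the platelet genes Ppbp and Pf4 among its leading genes, held 8.16 (6.86 to 9.65). A high ratio was not particular to hepatocyte-like barcodes, since it was 38.4 (29.6 to 49.4) in the erythroid-, B- and T- or NK-like barcodes and 31.6 (26.6 to 37.3) in the macrophage-like barcodes of tetYAP 4W. In the control the ratio was 3.66 (2.39 to 5.37) in hepatocyte-like and 2.57 (1.97 to 3.30) in endothelial-like barcodes, with overlapping intervals. The source of the Cd36 UMIs outside endothelial-like barcodes was not tested. Without the endothelial-rich cluster the relative log2 ratio of Cd36 was 5.45. Cd36 is known to be more abundant in female than in male mouse liver, and the libraries differ in Xist and Y-linked genes as given above.

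The acyl-CoA synthetases, which activate fatty acids, differed from each other. Acsl1, the main hepatic form, had 4055 UMIs in the control and 584 in tetYAP 4W, or 483 and 169 CPM. Its relative log2 ratio was -1.43 (-1.56 to -1.31), a lower call. Acsl5 had 1179 and 539 UMIs, or 140 and 156 CPM, and a relative log2 ratio of 0.23 (0.08 to 0.38). The 2 intervals do not overlap. Among barcodes with at most 30% mitochondrial UMIs the ratio was -1.99 for Acsl1 and -1.06 for Acsl5. Both values are set against a median of all genes of 0.98 there, so for Acsl5 the low value rested mostly on the centring.

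The members of the carnitine shuttle also differed from each other. Cpt1a, the outer-membrane transferase at which entry into mitochondria is controlled, had 413 UMIs in the control and 202 in tetYAP 4W, and a relative log2 ratio of 0.33 (0.08 to 0.58). Slc25a20, the carrier that moves acylcarnitine across the inner membrane, had 163 and 56 UMIs and a ratio of -0.18 (-0.64 to 0.27). Cpt2, the inner-membrane transferase, had 613 and 92 UMIs, or 73.0 and 26.5 CPM. Its ratio of -1.37 (-1.71 to -1.06) made it the only lower call of these enzymes. Cpt1a was also counted in other cells, at 0.377 UMIs per macrophage-like barcode of tetYAP 4W against 0.245 per hepatocyte-like barcode.

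All 7 enzymes of the mitochondrial spiral had relative log2 ratios below 0, between -1.21 and -0.64. Of these, 1 of 7 was called lower, near the background of 10.4% of all genes and 16.3% of those with at least 100 UMIs. That was Acaa2, the thiolase that splits off acetyl-CoA, with 5395 UMIs (643 CPM) in the control and 905 UMIs (261 CPM) in tetYAP 4W and a ratio of -1.21 (-1.32 to -1.11). The acyl-CoA dehydrogenases, which start each turn for chains of different length, lay close together. Acadvl (very long chains) was at -0.88, Acadl (long) at -0.64, Acadm (medium) at -0.64 and Acads (short) at -0.90, and the widest interval among them ran from -1.16 to -0.65.

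Hadha and Hadhb, the 2 subunits of the trifunctional protein that carries out the later steps for long chains, had 666 and 776 UMIs in the control and 164 and 169 in tetYAP 4W. Their relative log2 ratios, -0.66 (-0.91 to -0.41) and -0.84 (-1.09 to -0.59), did not differ beyond their intervals. The genes lie head to head on chromosome 5, with 272 bases between the RefSeq starts, and the 228 bases common to the start windows of both are printed because they stand before both genes (GRCm38.p6, chr5:30155003-30155230, plus strand, which is the strand of Hadhb). The stretch held 0 CCAAT boxes, in either orientation, and 57.0% G and C.
Hadha and Hadhb: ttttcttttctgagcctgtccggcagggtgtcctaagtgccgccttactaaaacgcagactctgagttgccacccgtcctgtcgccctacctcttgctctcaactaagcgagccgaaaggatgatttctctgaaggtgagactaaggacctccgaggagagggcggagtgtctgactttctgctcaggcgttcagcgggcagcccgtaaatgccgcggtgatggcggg

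Enzymes that prepare unsaturated fatty acids for the spiral had 3 of 5 members called lower, beside 10.4% of all genes, and a median of -1.08. Eci1, an isomerase that moves double bonds, had 952 and 152 UMIs and a ratio of -1.28 (-1.54 to -1.04). The dienoyl-CoA reductases Decr1 (mitochondrial) and Decr2 (peroxisomal) were both at -1.08, with 884 and 163 UMIs for Decr1 and 343 and 63 for Decr2. Ech1, another isomerase, was just outside the rule at -0.99 (-1.14 to -0.85), and Eci2 was at -0.34 (-0.56 to -0.12). Eci1 and Eci2 had intervals that do not overlap.

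The electron transfer flavoprotein, which takes electrons from the dehydrogenases, was lower in both subunits. Etfb had 3372 UMIs (402 CPM) in the control and 494 UMIs (143 CPM) in tetYAP 4W, a ratio of -1.41 (-1.55 to -1.27). Etfa had 1782 and 312 UMIs and a ratio of -1.15 (-1.33 to -0.98). Etfdh, the dehydrogenase that passes the electrons on to ubiquinone, had 324 and 76 UMIs and a ratio of -0.73 (-1.11 to -0.36), which was not called. The nuclear genes of the respiratory chain, the next electron carriers, had a median of -1.17. Of 34 counted genes 23 were called lower and 0 higher, beside 10.4% and 19.1% of all genes. The median mitochondrial share of UMIs was higher in tetYAP 4W as given above.

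Peroxisomal beta-oxidation had the lowest median of the roles with several oxidation genes, -1.28, with 3 of 4 called lower, beside 10.4% of all genes. Ehhadh, the bifunctional enzyme for straight chains, had 497 UMIs in the control and 64 in tetYAP 4W, or 59.2 and 18.5 CPM, and a ratio of -1.59 (-1.99 to -1.22). Hsd17b4, the bifunctional enzyme that also handles branched chains, had 1280 and 221 UMIs and a ratio of -1.17 (-1.38 to -0.96). The thiolases Acaa1b and Acaa1a were at -1.39 (-1.51 to -1.28) and -0.53 (-0.79 to -0.28), on 4805 and 711 UMIs for Acaa1b and 601 and 162 for Acaa1a. Acaa1a and Acaa1b are near-identical copies whose reads may be split between them, so the difference between them is uncertain.

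Bdh1, which makes hydroxybutyrate in ketone body synthesis, had 550 and 131 UMIs and a ratio of -0.71 (-0.99 to -0.43), with no call. Ppara, the gene of the receptor PPARalpha, had 148 UMIs in the control and 24 in tetYAP 4W, or 17.6 and 6.93 CPM. Its ratio of -1.26 (-1.95 to -0.63) was a lower call on few counts. Among barcodes with at most 30% mitochondrial UMIs the ratio was -0.23 (-1.28 to 0.68), set against a median of all genes of 0.98 there.

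Of the enzymes that supply synthesis, Me1, the malic enzyme that makes cytosolic NADPH (chromosome 9, bases 86581363 to 86695914), had 976 UMIs in the control and 59 in tetYAP 4W. The levels were 116 and 17.0 CPM, and the ratio of -2.69 (-3.09 to -2.31) was the lowest of all members but Elovl3. Per barcode, Me1 was higher in erythroid-, B- and T- or NK-like than in hepatocyte-like barcodes, at 0.773 against 0.363 UMIs in the control and 0.135 against 0.0716 in tetYAP 4W. Acly, which makes cytosolic acetyl-CoA from citrate, had 688 and 137 UMIs and a ratio of -0.97 (-1.24 to -0.70), just outside the rule. In tetYAP 4W, Acly was highest in the macrophage-like class, with 0.478 UMIs a barcode against 0.166 in the hepatocyte-like class.

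Of the carboxylases and the fatty acid synthase, the enzymes of chain building itself, 0 of 3 were called lower, beside 10.4% of all genes. With so few genes this count does not set them apart from that share. Fasn, the synthase, had 511 UMIs in the control and 273 in tetYAP 4W, or 60.9 and 78.8 CPM, and a ratio of 0.46 (0.24 to 0.67). Acaca, the cytosolic acetyl-CoA carboxylase, had 164 and 102 UMIs and a ratio of 0.68 (0.31 to 1.04). A cluster of 78 tetYAP 4W barcodes rich in nuclear RNA held 91 of these Fasn UMIs, at 290 CPM, and 38 of these Acaca UMIs, at 121 CPM. In the largest tetYAP 4W cluster, of 486 barcodes, Fasn was at 49.2 CPM (40.4 to 59.4) and Acaca at 18.1 CPM (12.9 to 24.6). Without the clusters rich in nuclear RNA of both libraries, the ratio was 0.30 (0.04 to 0.55) for Fasn and 0.40 (-0.04 to 0.83) for Acaca, set against a median of all genes of -0.30, so that neither stood above control in CPM by more than the counting error. Acacb, the mitochondrial carboxylase whose product inhibits Cpt1a, had 101 and 35 UMIs and a ratio of -0.17 (-0.76 to 0.40). Fasn and Acacb were 2 of the members above the blood-cell barcodes in tetYAP 4W, with 0.331 against 0.188 and 0.0425 against 0.00897 UMIs per barcode.

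**Figure D3:**
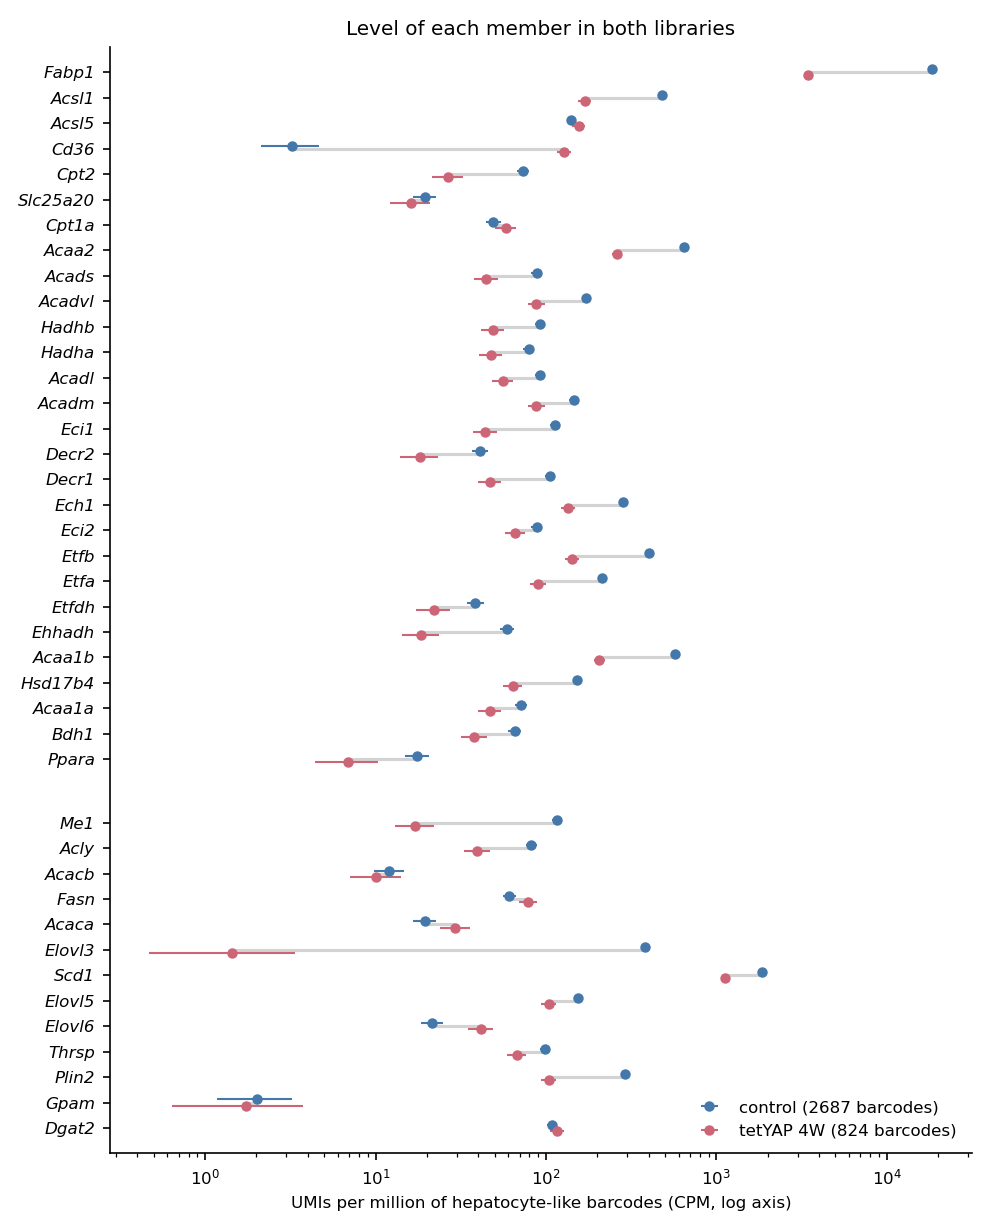
Level of each member in CPM (x axis, log) in the hepatocyte-like barcodes of the control (2687 barcodes) and tetYAP 4W (824 barcodes) libraries, with 95% Poisson intervals as bars and a grey line joining the libraries. Fasn, Acaca, Elovl6, Dgat2, Acsl5, Cpt1a and Cd36 are the members with a higher CPM in tetYAP 4W.

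Elongation and desaturation held the widest range. Elovl3, an elongase of very long saturated and monounsaturated chains (chromosome 19, bases 46131897 to 46135694), had 3184 UMIs in the control and 5 in tetYAP 4W, or 379 and 1.44 CPM, and a ratio of -7.95 (-9.58 to -6.73). At least 1 UMI was counted in 67.1% of control and 0.607% of tetYAP 4W hepatocyte-like barcodes. The control share was no higher than the 77.3% of its 22 erythroid-, B- and T- or NK-like barcodes. Elovl3 is known to be far more abundant in male than in female mouse liver. Here 8 of 8 listed genes with a known male bias were called lower, with a median of -5.04, beside 10.4% of all genes. Of the counted genes with a known female bias, 7 of 7 were called higher, with a median of 8.18, beside 19.1% of all genes.

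Elovl6, which elongates palmitate, was the only synthesis gene called higher. It had 180 UMIs in the control and 144 in tetYAP 4W, or 21.4 and 41.6 CPM, and a ratio of 1.04 (0.71 to 1.36). Among barcodes with at most 30% mitochondrial UMIs it was 0.42 (-0.31 to 1.09), set against a median of all genes of 0.98 there. Elovl5, which elongates polyunsaturated chains, was at -0.48 (-0.65 to -0.31) on 1291 and 360 UMIs.

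Scd1, the desaturase that makes oleate, was the most counted synthesis gene. It had 15581 UMIs in the control and 3881 in tetYAP 4W, or 1856 and 1120 CPM, and a ratio of -0.64 (-0.69 to -0.59). In tetYAP 4W it was 4.71 UMIs per hepatocyte-like barcode against 3.35 per erythroid-, B- or T- or NK-like barcode. The ratio was -1.58 (-1.72 to -1.45) among barcodes with at most 30% mitochondrial UMIs, where the median of all genes was 0.98 instead of -0.09. It was -1.81 (-2.03 to -1.61) between the clusters rich in nuclear RNA, where that median was 0.23. The size of the ratio thus depended on the barcodes compared and on their centring.

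Thrsp, a nuclear protein that promotes lipogenic gene expression, had 832 and 233 UMIs and a ratio of -0.47 (-0.69 to -0.26). Of the genes of glycerolipid synthesis and storage, Dgat2, which makes triglyceride, had 912 and 402 UMIs and a ratio of 0.18 (0.01 to 0.35). Gpam, the acyltransferase of the initial esterification, had only 17 and 6 UMIs and a ratio of -0.14 (-1.77 to 1.27), so a difference could not be seen at this depth. Plin2, the lipid droplet coat protein (chromosome 4, bases 86626910 to 86670217), had 2429 UMIs (289 CPM) in the control and 359 UMIs (104 CPM) in tetYAP 4W. Its ratio was -1.40 (-1.56 to -1.24), a lower call. Plin2 was higher in other tetYAP 4W barcodes, at 0.870 UMIs per neutrophil- or monocyte-like and 0.803 per endothelial-like barcode against 0.436 per hepatocyte-like barcode. These levels are not scaled to depth, and the other barcodes were deeper, at medians of 5525.5 and 6077 UMIs against 3977.5. In CPM, Plin2 was at 161 in neutrophil- or monocyte-like against 104 in hepatocyte-like barcodes.

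**Figure D4:**
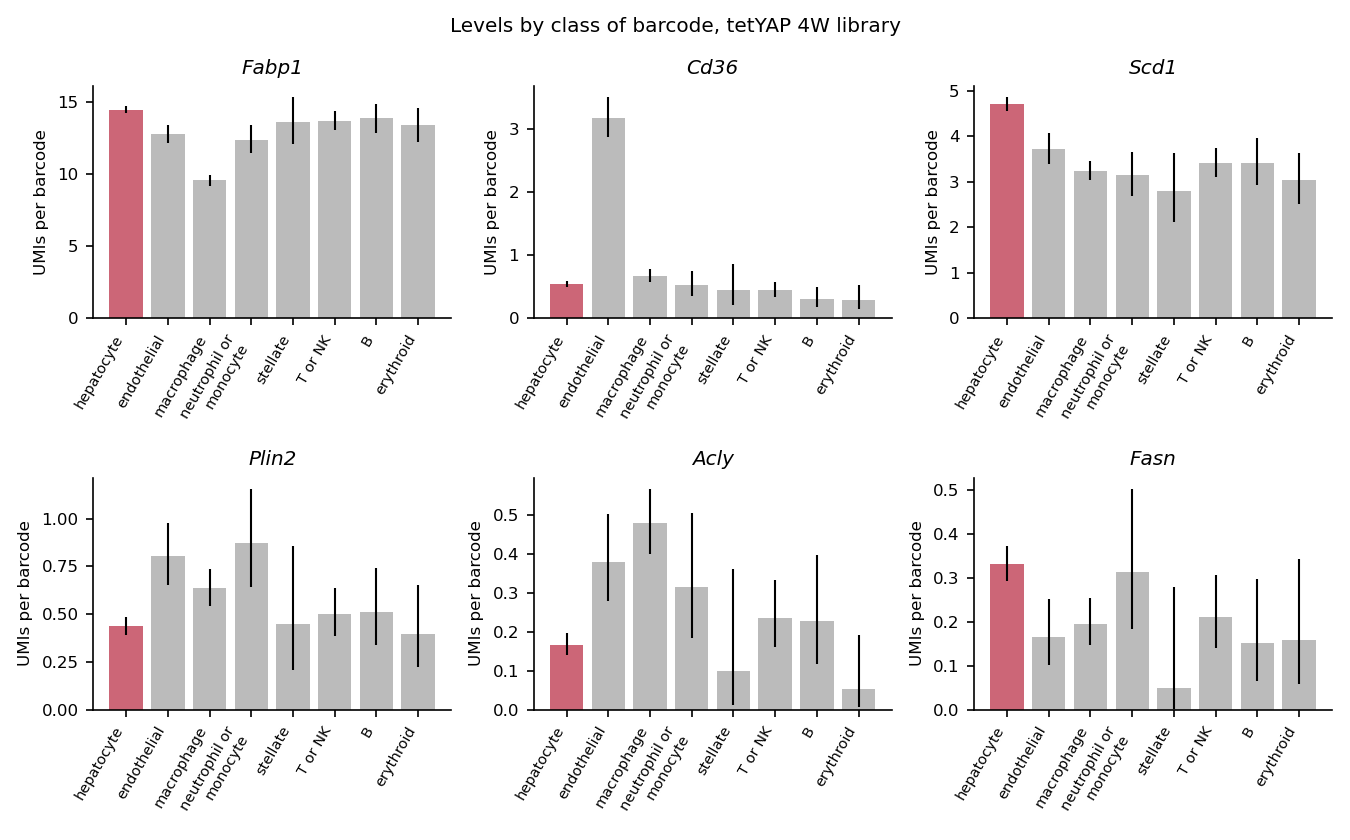
UMIs per barcode of 6 members by class of barcode in the tetYAP 4W library, with hepatocyte-like barcodes in colour and 95% Poisson intervals as bars. The levels are not scaled to depth, which differs between the classes. Fabp1 ranges from 9.54 in macrophage-like to 14.4 in hepatocyte-like barcodes, Cd36 stands out in endothelial-like barcodes at 3.19, and Plin2 and Acly are higher in endothelial-like and macrophage-like than in hepatocyte-like barcodes.

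Summed over the members, oxidation UMIs were 22851 CPM in control and 5565 CPM in tetYAP 4W barcodes, and synthesis UMIs 3200 and 1730 CPM. Without Fabp1 the other 27 oxidation genes summed to 4304 and 2129 CPM, and without Scd1 the other 12 synthesis genes to 1344 and 610 CPM. The sums thus stood 2.02-fold and 2.20-fold lower in tetYAP 4W once the most abundant gene of each group was set aside, against 4.11-fold and 1.85-fold with it, so that the order of the 2 groups turned. The synthesis sum without Scd1 still held Elovl3, at 379 CPM in control and 1.44 CPM in tetYAP 4W, and the turn rested on that gene. Per hepatocyte-like barcode the oxidation sum was 71.4 UMIs in control and 23.4 in tetYAP 4W, and the synthesis sum 9.999 and 7.28. In sums of this kind, fewer hepatocyte transcripts per cell and fewer hepatocytes behind the common RNA cannot be told apart.

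Mitochondrial share moved with the libraries, so the sums were also taken as CPM of non-mitochondrial UMIs only, within bins of mitochondrial share. Oxidation genes went from 34323 (barcodes under 20%) to 16467 (over 60%, 30 barcodes) in the control and from 12879 to 10809 in tetYAP 4W, and were lower in tetYAP 4W in every bin. Synthesis genes went from 4183 to 5758 in the control and from 2377 to 4373 in tetYAP 4W, and their sum was likewise lower in each bin. In barcodes under 20%, Scd1 was at 2262 in control and 951 in tetYAP 4W, and Elovl3 at 598 and 0. In barcodes over 60%, Scd1 was higher in tetYAP 4W, at 3028 against 2627. Without both genes, the synthesis sum stayed lower in tetYAP 4W in barcodes over 30% but not in those under 30%. The difference in the oxidation sum was narrowest in the highest bin, but Fabp1 made up most of these sums. Fabp1 alone was at 28012.5 in control and 8194 in tetYAP 4W in barcodes under 20%. In barcodes over 60% it was at 10658 and 6492, so the oxidation sums by bin mostly follow this gene. Over barcodes with at most 30% mitochondrial UMIs (1657 and 111), gene by gene and before the median of all genes, 0.98, was taken off, the log2 ratio of CPM had a median of -0.07 for oxidation and 0.13 for synthesis. The direction for synthesis, and most of the size for oxidation, thus rested on the centring there. Between the clusters rich in nuclear RNA, of 120 control and 78 tetYAP 4W barcodes, the oxidation sum was 14821 and 5813 CPM and the synthesis sum 3820 and 1948 CPM.

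**Figure D5:**
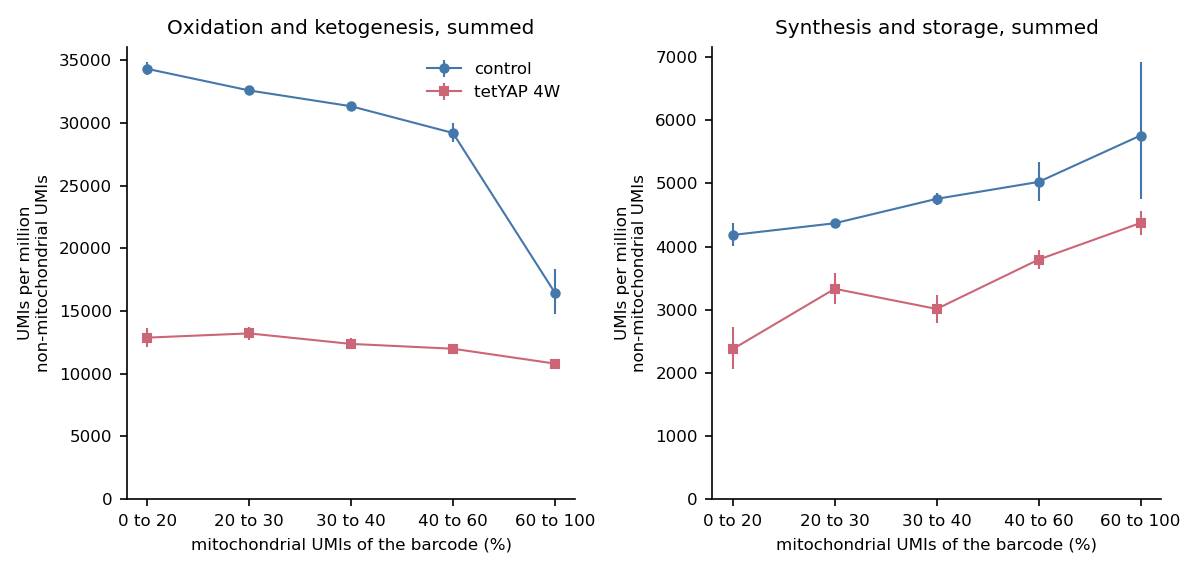
Summed level in CPM of non-mitochondrial UMIs (y axis) of the oxidation and the synthesis members in hepatocyte-like barcodes grouped by mitochondrial share (x axis, %), with 95% Poisson intervals. The control lies above tetYAP 4W in every bin of both groups. For the synthesis sum in barcodes under 30%, this rests on Scd1 and Elovl3. Within oxidation, where Fabp1 makes up most of the sum, the gap is widest in barcodes under 20% (34323 against 12879). It is narrowest there in barcodes over 60% (16467 against 10809).

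The start regions of the members were searched for the TEAD element GGAATG, since TEAD proteins are the DNA-binding partners of YAP. Of the 41 members, 35 had a RefSeq start window, and 7 of these 35 held the element on either strand, namely Acsl1, Cpt1a, Ehhadh, Etfb, Gpam, Me1 and Slc25a20, against 16.6% of all genes with a window. Shown are those of the members called lower that hold it, with the element in capitals and read 5′ to 3′ on the strand of the gene. They are Acsl1 (chr8:46470879-46470924, plus strand), Ehhadh (chr16:21787946-21787991, minus strand), Etfb (chr7:43443906-43443951, plus strand) and Me1 (chr9:86687306-86687351, minus strand), all in GRCm38.p6.
Acsl1: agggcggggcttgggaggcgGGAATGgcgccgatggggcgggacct
Ehhadh: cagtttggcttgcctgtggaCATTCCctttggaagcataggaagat
Etfb: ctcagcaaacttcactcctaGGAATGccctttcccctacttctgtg
Me1: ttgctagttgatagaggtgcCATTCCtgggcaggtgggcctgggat
The element begins 138, 137 and 146 bases before the start in the first 3 genes. In Me1 it begins 54 bases before an alternative RefSeq start inside the gene, and the window at the outer start of Me1 does not hold it. The sterol response element TCACNCCAC was found in 2 of the 35 members with a window (Acsl1 and Ehhadh, 1.44% of all genes) and the E-box CACGTG in 2 (Elovl5 and Plin2, 8.09% of all genes). A match describes the letters only, and an HNF4a-type element, CAAAGTCCA, was in 0 of the 35 members with a window and 0.555% of all genes.

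Genes of the same pathways outside the list were read in the same way. Of 57 counted genes among 60 further oxidation genes, 19 were called lower and 9 higher, with a median of -0.76. Of 45 counted genes among 54 further synthesis, storage and release genes, 7 were lower and 6 higher, with a median of -0.35. Cholesterol synthesis, a related pathway from acetyl-CoA, had 8 of 20 genes lower, 1 higher and a median of -0.82. The lists were read with the same backgrounds of 10.4% and 19.1%.

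Among the further genes with at least 100 UMIs, the lowest was Cyp4a12a, a male-biased fatty acid omega-hydroxylase, at -7.77 (1680 and 2 UMIs). Nudt7, a peroxisomal hydrolase of CoA compounds, followed at -2.95, and Fitm1, which takes part in lipid droplet formation, at -1.98. Scp2, a peroxisomal sterol carrier and thiolase, was at -1.92 and Acsl4, an activating enzyme for arachidonate, at -1.86. The highest was Fabp4, a fatty acid-binding protein of adipocytes, macrophages and capillary endothelium, at 5.66 (21 and 412 UMIs), and in tetYAP 4W it was highest in endothelial-like barcodes at 7.91 UMIs per barcode. Of the 412 UMIs, 321 lay in the hepatocyte-like cluster of 260 barcodes with most endothelial UMIs. The largest such cluster, of 486 barcodes, held 82, or 0.169 per barcode, against 0.188 in erythroid-, B- and T- or NK-like barcodes. Fads3, of the fatty acid desaturase family, was at 4.18 and Vnn1, a pantetheinase, at 3.92. Cyp4a14, an omega-hydroxylase known as a PPARalpha target, was at 2.55 and Abcd2, a peroxisomal transporter, at 2.38. Cyp4a genes have near-identical copies, so their separate counts are uncertain.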

How the data were processed

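Hepatocytes isolated by liver perfusion were sequenced as 10x libraries, 1 of control and 1 of tetYAP 4W. The authors deposited 1 table of UMI counts per gene and barcode for both libraries, not normalized; per the labels it was made with Cell Ranger and Seurat 3 on mm10. The study's methods state down-sampling to 3000 cells per condition and removal of barcodes above 7500 UMIs; the table holds 2989 and 1524 barcodes and 0 above 7500 UMIs. No further cell filter was applied and no doublet caller was run, so doublets stay in.

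Counts were clustered with scanpy 1.11.5 (2000 variable genes, 20 components, 15 neighbours, Leiden resolution 0.8). Clusters took a class name where at least 3 of that class's fixed markers had 10 UMIs and 3 times the level of the other barcodes of its library. A cluster with no such class was called hepatocyte-like if hepatocyte markers were counted. The naming rule was written after the files were seen. No hepatocyte marker had to exceed other barcodes, since hepatocyte RNA was counted in all of them.

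UMIs were summed per library over hepatocyte-like barcodes (8396196 in the control, 3465316 in tetYAP 4W) and divided by that total to give CPM. Log2 ratios have exact conditional binomial 95% intervals, levels exact Poisson ones and shares of barcodes exact binomial ones. Counts under 3 were set to 3 in a ratio. With 1 library per group no test was possible. Ratios were checked on simulated counts.

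All 41 members are named, and, of the further pathway genes, the 5 highest and 5 lowest with at least 100 UMIs. Other genes named (markers, leading genes of clusters, sex-linked genes) were chosen as checks. The members and lists were chosen with earlier results of these data known. Gene positions and start windows are from RefSeq (GRCm38.p6, which is mm10). The other mouse genome at hand, of an earlier build, was left aside. Alternatives changed the barcodes, class calls, scaling (edgeR 4.0.16 TMM factors), depth, low-count filter and free RNA. DESeq2 was not run because no model can be fitted to 1 library per group.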

Additional observations from a re-analysis of the deposited data

Results flagged for a closer look

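Xist, which is no member of the pathways, had 4859 UMIs over all tetYAP 4W barcodes and 3 over all control barcodes, and 4 Y-linked genes had 0 and 716. This signal lies outside the comparison of fatty acid genes. The labels used here give no sex, and its part in the values of Elovl3 and Cd36 was not tested, since sex and genotype cannot be told apart with 1 library of each.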

How the results depend on the processing

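Both medians stayed below 0 under every alternative but free-RNA subtraction and the blood-cell barcodes. Values are given as oxidation median, synthesis median, members lower and members higher, against -0.94, -0.47, 16 and 2. All barcodes gave -1.78, -1.25, 33 and 1, and classes called without clusters -1.77, -1.24, 33 and 1. The median of all genes taken off was 0.60 in either. With genes of at least 1 UMI the values were -1.39, -0.91, 27 and 1. There the median taken off was 0.36, and the ratios of the members before centring were unchanged. Subtracting the UMIs of erythroid-, B- and T- or NK-like barcodes reversed the medians, to 1.26 and 1.40 with 7 lower and 14 higher; by its construction it left only 15 and 9 members and a median of all genes of -4.08. It reversed Acaa1b (6.57), Acsl1 (7.89), Ppara (1.41) and Fabp1 (10.18). These blood-cell barcodes alone, chosen after seeing the data, gave -0.074, 0.14 (reversed), 3 and 1, and 0.51 for Decr1; the cause was not tested. At most 30% mitochondrial UMIs, where the median of all genes taken off was 0.98, moved the synthesis median to -0.85. The clusters rich in nuclear RNA, also chosen afterwards, moved the oxidation median to -0.64. A 4-fold rule left 3 lower and 1 higher. Equal weight per barcode, no centring and leaving out Cd36 and Elovl3 each left 1 higher. The synthesis median was above the oxidation median throughout, by 0.09 to 0.67. Other scalings (TMM, totals without mitochondrial and the 50 most abundant genes) leave relative values as they are by construction, and moved the median of all genes to -0.08 and 0.40. Leaving out the clusters rich in nuclear RNA, chosen after seeing the data, gave -0.78, -0.37, 12 and 2. Of 757 values of single members over the alternatives, 495 kept their place, 257 moved and 5 reversed. No paired analysis was possible because each group is 1 library. Genes with few UMIs (Gpam, Ppara, Acacb) are limited by depth.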
